A study of Mus musculus with 6 samples.

Results

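DNA replication genes were examined in mouse hearts that overexpress a microRNA cluster. The set was a fixed list of 48 genes of origin licensing, helicase activation, the replication fork, nucleotide synthesis and chromatin assembly. A gene was a member if the array had a probe annotated with its symbol alone, and its brightest probe, by the mean of the 6 arrays, was used. That left 47 genes of the 22180 measured, and Rfc4, whose probe carries several symbols, was not analysed here. The list was written from the known roles of these genes, with earlier results of these data known.

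RNA of whole mouse hearts (strain given as Mixed C57BL/6 x 129S6) was measured on 6 Affymetrix arrays. In the control group, 3 hearts carried Nkx2.5-Cre, a Cre recombinase driven by a gene of cardiac progenitors, so recombination is limited to those cells and their descendants. The transgenic group, 3 hearts labelled Nkx2.5-Cre; R26R-miR302-367, carried the same Cre and the miR-302-367 cluster at the Rosa26 locus. The labels conflict on age, with postnatal day 14 in the source name and the harvest protocol and E14 in the age field, and they do not say whether the hearts came from separate animals, so each p-value reflects only how far these samples scatter, and that scatter may be technical.

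Values are log2 expression as deposited, and probes of different genes are not on a common scale, so each gene is compared only with itself across arrays. The medians of all probes on the 6 arrays lay between 5.45 and 5.54, and the correlation of arrays within a group was 0.982 to 0.989. The upper quartiles of all probes lay between 7.06 and 7.15 on control arrays and between 7.16 and 7.20 on transgenic arrays. These ranges did not overlap, and the part of this shift in the results was not tested. As a check of the labels, the cluster's 5 genes (Mir302a, Mir302b, Mir302c, Mir302d and Mir367) rose by 2.99 to 6.61 on the log2 scale (largest limma adjusted p = 0.0002713). All 8 cardiomyocyte markers had control means between 10.25 and 13.50, and their mean level spanned 12.55 to 12.59 in control and 12.57 to 12.59 in transgenic hearts. The number of arrays limits the precision.

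Replication begins when the origin recognition complex, Cdc6 and Cdt1 load rings of Mcm2 to Mcm7, the core of the replicative helicase, onto DNA. In S phase Cdc45 and the GINS complex join the ring, and polymerases copy the strands with the sliding clamp Pcna, while ribonucleotide reductase, thymidylate synthase and thymidine kinase supply deoxynucleotides. Many of these genes are switched on by E2F factors before S phase, and heart muscle cells of mammals largely stop replicating their DNA for division soon after birth.

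The replication genes were higher in transgenic hearts across most of the set, by small amounts. Of the 47 genes, 46 had a positive log2 fold change and 1, Rpa2, a negative value, with a median of 0.33 (median of all genes, -0.03). At a limma adjusted p of 0.05 over all genes, 15 rose (31.9%), where 5.35% of all genes were called higher, and 0 fell, where 5.76% of all genes were called lower. At an unadjusted p of 0.05, 31 members were higher and 0 lower, beside 11.9% of all genes higher and 13.4% lower. Every transgenic array lay above every control array for 30 of the 47 (63.8%), beside 14.2% of all genes. Of the 47 genes, 4 (Rrm2, Pole, Prim1 and Gins2) passed with a rise of at least 1.5-fold, beside 2.16% of all genes. Among genes called higher, these were 4 of the 15 members, beside 480 of 1187 over all genes.

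**Figure D1:**
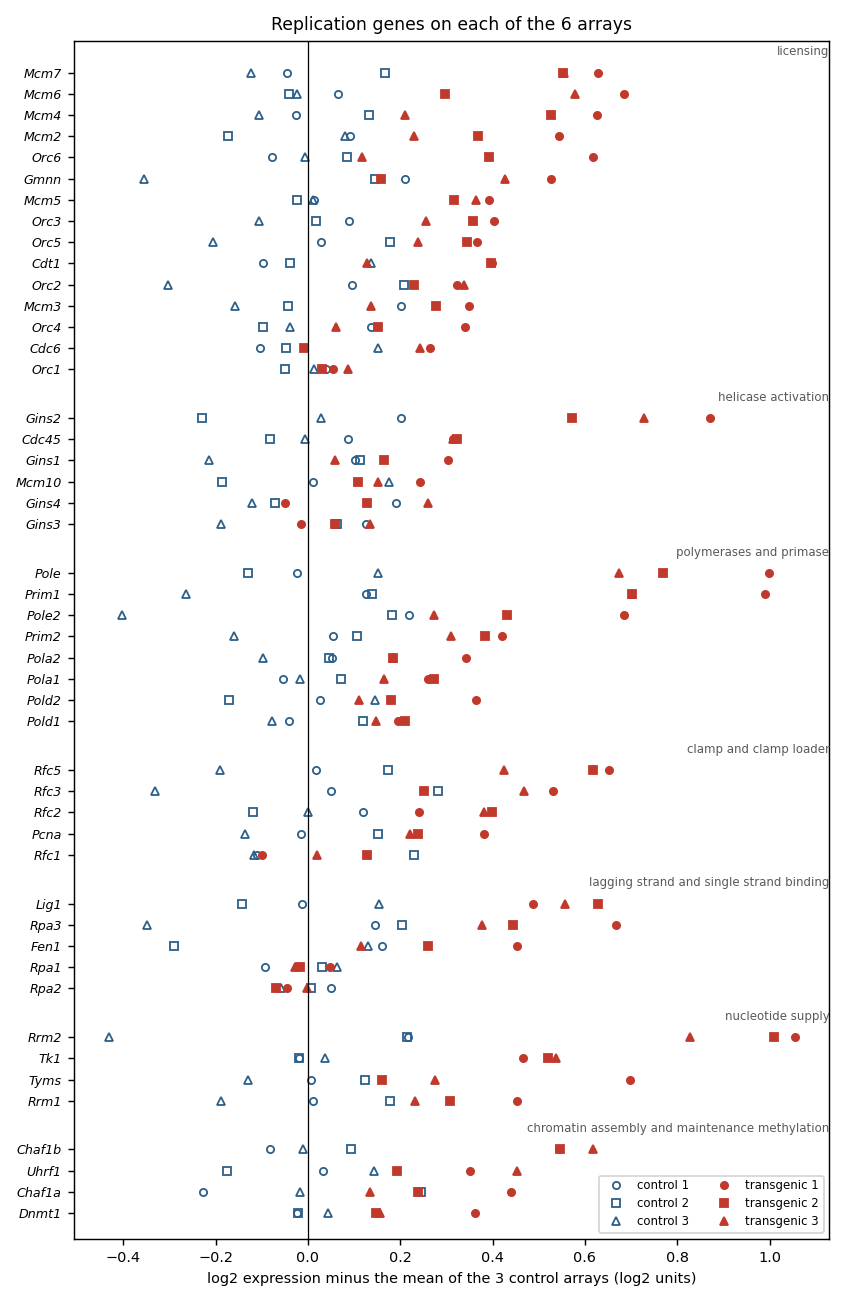
Log2 expression of the 47 replication genes on each of the 6 arrays, minus the mean of the 3 control arrays of the same gene (x axis, log2 units), with genes grouped by role on the y axis. Open blue symbols are control arrays and filled red symbols transgenic arrays, and for 30 genes all red symbols lie to the right of all blue ones.

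The arrays of a group did not contribute evenly. The transgenic 1 array was the highest of the 3 transgenic arrays for 33 of the 47 genes (70.2%), beside 33.3% of all genes. The control 3 array was the lowest of the controls for 24 (51.1%), beside 39.2% of all genes. The mean level of the 47 genes was 6.87, 6.86 and 6.75 on control arrays 1, 2 and 3, and 7.25, 7.14 and 7.12 on transgenic arrays 1, 2 and 3. These means do not overlap between the groups. The number of members that rose was 11 without control 3, 8 without transgenic 1, 8 without control 1 and 9 without transgenic 2. Leaving out 1 array moved the log2 fold change by over 1.5 times for 0 of the 15 genes that rose and for 19 of the 32 that did not pass. This contrast is partly set by the calls themselves. A call needs a change that is large beside its scatter, and small values move easily by this ratio.

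Among licensing genes, the MCM ring had the most calls. Of Mcm2 to Mcm7, 4 rose, and of the 6 origin recognition subunits 1 did. Counts of genes that rose, in this and the following role groups, stand beside 5.35% of all genes called higher. In groups this small, 1 call is near that share. Mcm7, a helicase subunit, had log2 values of 7.28, 7.49 and 7.20 in control hearts and of 7.96, 7.88 and 7.88 in transgenic hearts. It had the largest change of the licensing genes, and the groups were well apart. Mcm7 rose by 0.58 on the log2 scale (SE 0.099, 1.49-fold, adjusted p = 0.00752), and the call was kept without each array in turn.

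Mcm6 rose by 0.52 (adjusted p = 0.02061), Mcm4 by 0.45 (adjusted p = 0.04915) and Mcm5 by 0.36 (adjusted p = 0.02313), all subunits of the same ring. Their calls sat close to the threshold. Mcm6 missed the threshold when control 1 (adjusted p = 0.0509), control 2 (0.0561), transgenic 1 (0.0789) or transgenic 3 (0.0723) was left out. That of Mcm4 was lost without control 1 (0.126), control 2 (0.0557), control 3 (0.109), transgenic 1 (0.164) or transgenic 2 (0.156). That of Mcm5 was kept without control 3 (0.0368) and lost without each of the other 5 arrays (0.0609 to 0.0883). The spread of Mcm5 was small, with control hearts at 7.42 ± 0.021 and transgenic hearts at 7.78 ± 0.039 (SD, n = 3 each). Mcm2 had a log2 fold change of 0.38 (adjusted p = 0.06891) and Mcm3 of 0.25 (adjusted p = 0.2023), so neither passed.

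The origin recognition complex marks the sites at which the rings are loaded. Orc3 rose by 0.34 (SE 0.091, adjusted p = 0.04711), a call that was lost without each of the 6 arrays in turn (0.0754 to 0.155). Orc2, Orc4, Orc5 and Orc6 had log2 fold changes of 0.18 to 0.38 (adjusted p from 0.1024 for Orc6 to 0.3313 for Orc4). The value of Orc2 was 0.14 without control 3, beside 0.30 with all arrays, and that of Orc4 was 0.11 without transgenic 1. Orc1, the subunit whose level changes most over the cell cycle in mammals, had log2 values of 4.73, 4.64 and 4.70 in control and of 4.74, 4.72 and 4.78 in transgenic hearts. The groups overlapped, and the log2 fold change of 0.06 was the smallest of the licensing genes (95% interval -0.13 to 0.24, adjusted p = 0.7214). Its values sat low on the array's scale, below the median of all probes. The values of Cdc6, Gins1 and Fen1, given below, were also under that median on every array.

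The loading factors and their inhibitor did not pass the test. Cdt1, which brings the ring to the origin, had a log2 fold change of 0.31 (adjusted p = 0.1146) and Cdc6, the loading ATPase, of 0.17 (adjusted p = 0.4038). Gmnn, which encodes geminin and blocks Cdt1, had 0.37 (SE 0.16, adjusted p = 0.1907). Geminin was at 6.53, 6.47 and 5.97 in control and at 6.85, 6.48 and 6.75 in transgenic hearts, so its groups overlapped, with control 3 far below the other controls. Without control 3 its value was 0.19, and that of Cdc6 was 0.25 without transgenic 2.

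Of the 6 helicase activation genes, 2 rose. Gins2, a subunit of the 4-protein GINS complex, had log2 values of 7.16, 6.73 and 6.99 in control and of 7.83, 7.53 and 7.69 in transgenic hearts. It rose by 0.72 (SE 0.13, 1.65-fold, adjusted p = 0.008911), with no overlap. The other GINS subunits did not pass, with log2 fold changes of 0.18 for Gins1, 0.11 for Gins4 and 0.06 for Gins3. Gins3 was at 6.82, 6.76 and 6.51 in control and at 6.68, 6.76 and 6.83 in transgenic hearts, which overlap (95% interval -0.18 to 0.30). Its value without control 3 had the opposite sign, at -0.03. Without that array Gins1 was at 0.07, and Gins4 ranged from 0.04 to 0.21 without each array in turn.

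Cdc45, which links the MCM ring to GINS, was at 6.10, 5.93 and 6.01 in control and at 6.33, 6.34 and 6.33 in transgenic hearts. The transgenic values were nearly equal and all above the controls. Cdc45 rose by 0.32 (adjusted p = 0.0451), a call that was lost without each of the 6 arrays in turn (0.0712 to 0.133). Mcm10, which helps to start the assembled helicase, had a value of 0.17 (adjusted p = 0.3894), with a range of 0.07 to 0.26 without each array in turn.

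**Figure D2:**
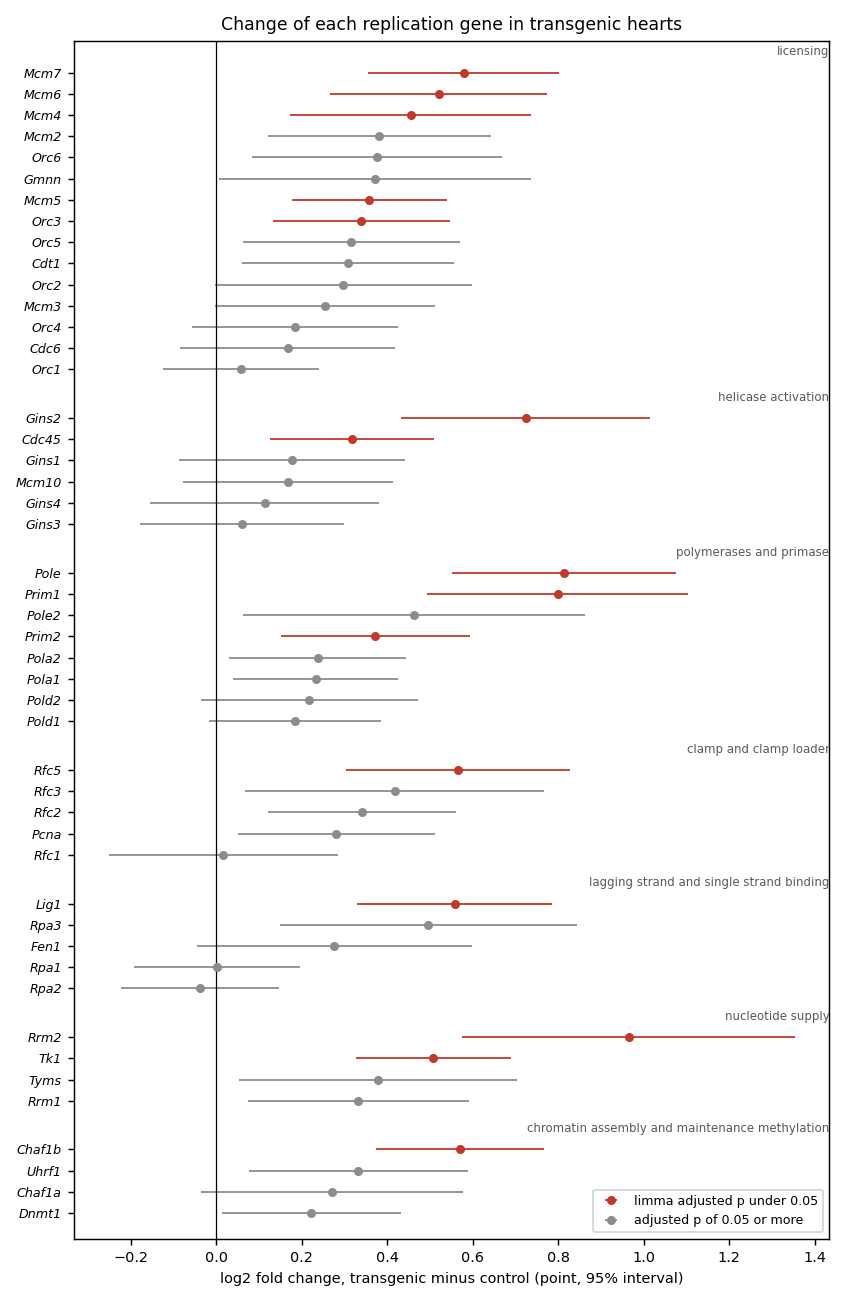
Log2 fold change of each replication gene, transgenic minus control (point), with its 95% interval from the limma fit (bar), grouped by role. The 15 genes in red passed an adjusted p of 0.05 over all genes, led by Rrm2 at 0.96, and Rpa1, Rpa2 and Rfc1 sit at 0.00, -0.04 and 0.02.

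At the fork, 3 of the 8 polymerase and primase genes rose. Pole, the catalytic subunit of the leading strand polymerase epsilon, had log2 values of 5.83, 5.72 and 6.01 in control and of 6.85, 6.62 and 6.53 in transgenic hearts. The groups did not overlap, and the rise of 0.81 (SE 0.12, 1.76-fold, adjusted p = 0.003365) was the largest of the polymerase genes. A second, dimmer Pole probe had a value of -0.13 (adjusted p = 0.6717 when all probes were tested), and the mean of both probes did not pass (0.34, adjusted p = 0.0994). Pole2, the second subunit of the enzyme, had a value of 0.46 with a wide interval of 0.06 to 0.86 (adjusted p = 0.1359), and 0.26 without control 3.

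Primase makes the RNA primers that polymerase alpha extends. Prim1, its catalytic subunit, was at 6.23, 6.24 and 5.84 in control and at 7.10, 6.81 and 6.81 in transgenic hearts. Prim1 rose by 0.80 (SE 0.13, 1.74-fold, adjusted p = 0.007223) and kept its call without each array in turn. Prim2, the regulatory subunit, rose by 0.37 (adjusted p = 0.043). The Prim2 call was kept without control 2 (0.0493) and lost without each of the other 5 arrays (0.0803 to 0.139). The polymerase alpha subunits Pola1 and Pola2 had log2 fold changes of 0.23 (adjusted p = 0.1219) and 0.24 (adjusted p = 0.1423), with groups that did not overlap for either gene.

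Polymerase delta, which copies the lagging strand, had the smallest values here. Pold1, its catalytic subunit, was at 6.38, 6.54 and 6.34 in control and at 6.62, 6.63 and 6.57 in transgenic hearts. The groups did not overlap, but the difference of 0.18 did not pass (95% interval -0.02 to 0.39, adjusted p = 0.2394). Pold2 had 0.22 (adjusted p = 0.2689), and 0.13 without control 2.

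The sliding clamp is placed on DNA by the replication factor C complex. Among these 5 genes 1 rose, Rfc5, a small loader subunit, at 7.13, 7.29 and 6.92 in control and 7.77, 7.73 and 7.54 in transgenic hearts. It rose by 0.57 (SE 0.12, adjusted p = 0.01647), but missed the threshold when control 1 (0.0519), transgenic 1 (0.07) or transgenic 2 (0.0691) was left out. The small subunits Rfc2 and Rfc3 had values of 0.34 (adjusted p = 0.05567) and 0.42 (adjusted p = 0.1267), the latter 0.25 without control 3. Rfc1, the large subunit, was at 7.11, 7.45 and 7.10 in control and at 7.12, 7.35 and 7.24 in transgenic hearts. Its difference of 0.02 (95% interval -0.25 to 0.28) changed sign under several alternatives, and the groups overlapped. Pcna, the clamp itself, had a value of 0.28 (95% interval 0.05 to 0.51, adjusted p = 0.1201) with groups that did not overlap.

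On the lagging strand, Lig1, the ligase that seals Okazaki fragments, was at 6.64, 6.51 and 6.81 in control and at 7.14, 7.28 and 7.21 in transgenic hearts. Lig1 rose by 0.56 (SE 0.10, 1.47-fold, adjusted p = 0.009505) and kept its call without each array in turn. Fen1, the nuclease that trims the fragments, had a value of 0.28 (adjusted p = 0.2679) with overlapping groups, and 0.13 without control 2. Its second probe gave 0.08.

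Replication protein A coats single-stranded DNA in replication and also in repair. Rpa1, its largest subunit, was at 7.47, 7.59 and 7.62 in control and at 7.61, 7.54 and 7.53 in transgenic hearts, which overlap. Its log2 fold change of 0.00 had a 95% interval of -0.19 to 0.20. Rpa2 had -0.04 (95% interval -0.22 to 0.15). Rpa3, the smallest subunit, had 0.50 (adjusted p = 0.07456) with groups that did not overlap, and its second probe 0.33. Without control 3 the value of Rpa3 was 0.32. None of the 3 passed the test.

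Of the 4 nucleotide supply genes 2 rose, beside 5.35% of all genes called higher. For all 4 every transgenic array lay above every control array, beside 14.2% of all genes. Rrm2, the small subunit of ribonucleotide reductase that is made in S phase, was at 6.60, 6.60 and 5.95 in control and at 7.44, 7.39 and 7.21 in transgenic hearts. It had the largest change of all 47 genes, a rise of 0.96 (SE 0.17, 1.95-fold, adjusted p = 0.008949). Control 3 was far below the other controls. Without control 3, Rrm2 still passed, at an adjusted p of 0.00492. A second, very dim Rrm2 probe gave -0.14, and the mean of both probes did not pass (0.41, adjusted p = 0.0569).

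Rrm1, the large subunit of the reductase, was at 7.76, 7.93 and 7.56 in control and at 8.20, 8.06 and 7.98 in transgenic hearts. Its value of 0.33 (95% interval 0.07 to 0.59) did not pass (adjusted p = 0.1035). Tk1, the cytosolic thymidine kinase of dividing cells, had the tightest values of the group, with 6.90 ± 0.032 for the controls and 7.41 ± 0.037 for the transgenic hearts (SD, n = 3 each). Tk1 rose by 0.51 (adjusted p = 0.005319) and kept its call without each array in turn. Tyms, thymidylate synthase, had 0.38 (adjusted p = 0.1358), with transgenic 1 at 7.94 and the other transgenic arrays at 7.40 and 7.51, and a value of 0.22 without transgenic 1.

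New DNA is packed into nucleosomes by chromatin assembly factor 1 and its methylation is copied by Dnmt1, which Uhrf1 recruits. Chaf1b, the middle subunit of the factor, was at 6.13, 6.31 and 6.20 in control and at 6.76, 6.76 and 6.83 in transgenic hearts. Chaf1b rose by 0.57 (SE 0.086, 1.48-fold, adjusted p = 0.004565) and kept its call without each array in turn. Its partner Chaf1a had 0.27 (adjusted p = 0.2545) with overlapping groups, and a range of 0.16 to 0.39 without each array in turn. Uhrf1 had 0.33 (adjusted p = 0.09864). Dnmt1 was at 7.15, 7.15 and 7.22 in control and at 7.53, 7.32 and 7.33 in transgenic hearts, a difference of 0.22 (95% interval 0.01 to 0.43, adjusted p = 0.1695) without overlap.

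Because the tissue was measured in bulk, a change in the number of cells of a type and a change in RNA per cell cannot be told apart. Marker counts below stand beside 5.35% of all genes called higher and 5.76% called lower. Endothelial markers moved with the groups. Of 8 measured, 5 fell and 0 rose, among them Pecam1, the adhesion molecule CD31 (-0.50, adjusted p = 0.01046), and Ly6c1 (-1.23, adjusted p = 0.004307), and their mean level spanned 9.22 to 9.36 in control and 8.78 to 8.90 in transgenic hearts. Of 8 macrophage and myeloid markers 5 fell and 0 rose, with means of 6.99 to 7.12 in control and 6.33 to 6.56 in transgenic hearts. Csf1r, the receptor of macrophage growth factor, had a log2 fold change of -0.94 (adjusted p = 0.001962), and the complement gene C1qb of -0.96 (adjusted p = 0.0003309). Of 8 fibroblast markers 1 rose, with means of 9.02 to 9.19 and 9.17 to 9.26, and the call of that marker, Postn, was lost without each array in turn (0.0682 to 0.159).

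Of 8 smooth muscle and pericyte markers 1 rose, Cnn1, by 1.41 (2.65-fold, limma adjusted p = 0.0009673), and 3 fell. Of those that fell, Rgs5 had the smallest p (-0.65, adjusted p = 0.005811). Both kept their calls without each array in turn, and the means of the list were 8.97 to 9.14 and 8.92 to 9.08. Of 8 epicardial markers 1 rose and 1 fell, and the means were 6.97 to 7.10 and 6.76 to 6.98. Tbx18 rose by 0.66 (adjusted p = 0.004809) and kept its call without each array in turn. Msln fell by 0.58 (adjusted p = 0.03643), a call lost without each array in turn (0.0534 to 0.114). Lymphoid markers, 7 measured, had means of 5.18 to 5.34 and 4.97 to 5.32, and the 3 erythroid markers measured had means of 5.51 to 5.66 and 5.53 to 5.60, with 0 called in either list at a limma adjusted p of 0.05 and 1 lymphoid marker lower at an unadjusted p of 0.05. Over all genes, 5.35% were called higher and 5.76% lower. Counts of 1 called marker in lists this small are near these shares. The epicardial list moved more at an unadjusted limma p of 0.05. There 3 of its 8 markers were higher and 5 lower, beside 11.9% of all genes higher and 13.4% lower. The part of these cell types in the rise of replication genes was not tested.

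Other genes of the pathway were taken from lists written from their known roles. Of 34 further replication genes 9 rose (26.5%) and 0 fell, beside 5.35% of all genes higher and 5.76% lower, with a median of 0.21. At an unadjusted p of 0.05, 15 were higher and 1 lower, beside 11.9% and 13.4% of all genes. Top2a, the topoisomerase that untangles replicated chromosomes, rose by 0.72 (adjusted p = 0.00256), and Wdhd1, which tethers polymerase alpha to the helicase, rose by 0.77 (adjusted p = 0.007345). Topbp1, which helps to load Cdc45, rose by 0.54 (adjusted p = 0.01038), and these 3 genes kept their calls without each array in turn. Rbbp4, the third subunit of chromatin assembly factor 1, rose by 0.44 (adjusted p = 0.01475), a call lost without transgenic 2 (0.0546) or transgenic 3 (0.0569). A second, dim Rbbp4 probe gave -0.35, and with both probes averaged the log2 fold change of Rbbp4 was 0.05 (adjusted p = 0.843). The count of 9 fell to 5 without transgenic 1, 3 without transgenic 2 and 3 without transgenic 3.

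Of 22 further nucleotide supply genes 1 rose and 2 fell, with a median of 0.05. These shares are near those of all genes, 5.35% higher and 5.76% lower. At an unadjusted p of 0.05, 3 were higher and 5 lower, beside 11.9% of all genes higher and 13.4% lower. Dctd, the deaminase that makes the substrate of thymidylate synthase, rose by 0.67 (adjusted p = 0.008642) and kept its call without each array in turn. Shmt2, the mitochondrial serine hydroxymethyltransferase, fell by 0.43 (adjusted p = 0.02015), a call lost without control 1 (0.0568), control 2 (0.0586), transgenic 1 (0.0819) or transgenic 3 (0.0731). Samhd1, which breaks down deoxynucleotides, fell by 0.32 (adjusted p = 0.04247), a call lost without each array in turn (0.0558 to 0.13).

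Lists of genes that keep the mitochondrial genome and of repair polymerases were also counted. Of 13 mitochondrial DNA genes 0 rose and 1, Rrm2b, fell, with a median of -0.04. At an unadjusted p of 0.05, 0 were higher and 3 lower, beside 11.9% of all genes higher and 13.4% lower. Of 10 repair and translesion polymerase genes 0 were called either way by limma, with a median of 0.13. At an unadjusted p of 0.05, 2 were higher and 1 lower, beside the same shares of all genes. In lists this small, the shares called over all genes (5.35% higher and 5.76% lower) come to about 1 gene or fewer in each direction, and whether these lists differ from the 47 replication genes was not tested.

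**Figure D3:**
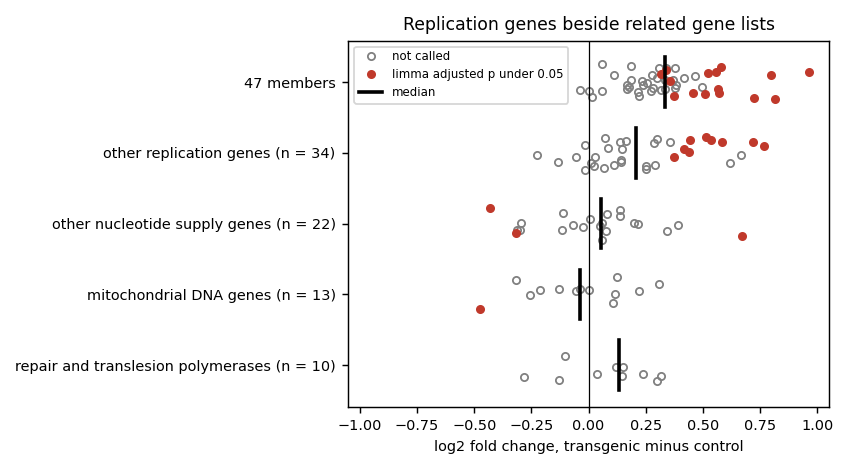
Log2 fold change of each gene, transgenic minus control (x axis), for the 47 replication genes and 4 related lists (y axis), with vertical jitter for visibility. Filled red points passed a limma adjusted p of 0.05, open points did not, and the bars are medians, at 0.33, 0.21, 0.05, -0.04 and 0.13 from top to bottom.

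Some replication enzymes have a counterpart of similar activity that serves resting cells or mitochondria. Rrm2b, the p53-inducible small subunit of ribonucleotide reductase, lay between 7.82 and 8.08 in control and between 7.35 and 7.59 in transgenic hearts. Rrm2b fell by 0.48 (SE 0.11, adjusted p = 0.02308), while Rrm2 rose, and Rrm2b missed the threshold when control 1 (0.0832), control 2 (0.0605), transgenic 1 (0.0891) or transgenic 2 (0.0679) was left out. Within each array the log2 difference Rrm2 minus Rrm2b did not overlap between the groups and was larger in transgenic hearts by 1.44 in the mean (exact permutation p = 0.10, two-sided, the smallest that 3 against 3 allows, adjusted p = 0.25 over 5 pairs).

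Tk2, the mitochondrial thymidine kinase, had a log2 fold change of 0.22 (adjusted p = 0.3637, range 0.13 to 0.38 without each array in turn) beside the 0.51 of Tk1, and the within-array difference of the pair changed by 0.29 (exact permutation p = 0.20), and by 0.12 without control 2. Lig3, a ligase of repair and mitochondria, had 0.11 (adjusted p = 0.5339, range 0.06 to 0.19) beside the 0.56 of Lig1, and the difference changed by 0.44 (exact permutation p = 0.10). Within the origin recognition complex, Orc1 minus Orc2 changed by -0.24 (exact permutation p = 0.30), and by -0.08 without control 3. Mcm9 rose by 0.58 (adjusted p = 0.03524), a call lost without transgenic 1 (0.111), transgenic 2 (0.117) or transgenic 3 (0.0733). Mcm2 minus Mcm9, a helicase of recombination repair, changed by -0.20 (exact permutation p = 0.70), and without control 3 by 0.01. None of the 5 pairs passed after adjustment (0.25 to 0.70), and this design could not have passed.

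**Figure D4:**
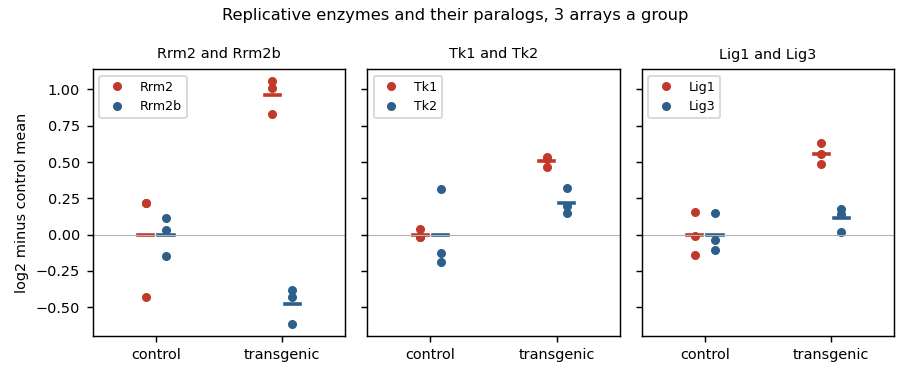
Log2 expression minus the control mean of the same gene (y axis) in control and transgenic hearts (x axis) for 3 replication enzymes (red) and their counterparts (blue). Points are arrays, 3 a group, and short bars are means, with Rrm2 higher by 0.96 and Rrm2b lower by 0.48 in the transgenic hearts.

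The promoters of the set were then searched for E2F-type sites, since the rule did not use sequence. RefSeq windows from 250 bases before to 50 bases after the start were found for 39 of the 47 genes (build GRCm38.p6). Gins1, Gins2, Gins4, Gmnn, Mcm4, Pole, Prim2 and Rfc2 had none in the table. The motifs were TTTGGCGC, TTTCCCGC, TTTCGCGC and TTTGCCGC on either strand, which may overlap each other on opposite strands, and a gene counted as matched if any of its windows held 1. Of the 39 genes, 16 (41.0%) matched, beside 704 of 27025 genes with a window (2.61%). The members' windows were richer in G and C, at a median of 60.0% beside 52.8%. Among measured genes with GC content in the middle range of the members, between their quartiles, 290 of 6175 matched (4.70%), a range chosen after the values were seen.

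Genes that rose and those that did not pass held the motif at shares whose difference was not tested. Of the 11 genes with a window that rose 5 matched (45.5%), and of the 28 that did not pass 11 matched (39.3%). The CCAAT box, searched as CCAAT or ATTGG, was in windows of 26 of the 39 (66.7%), beside 41.1% of all genes with a window. It was in 6 of the 11 that rose and 20 of the 28 others. A match is a run of letters and not a measured binding site.

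The windows of 6 genes are given from 5′ to 3′ on the strand of the gene, with E2F-type matches in capitals. Mcm5, Mcm6 and Mcm7 are helicase genes that rose and matched, Orc1 matched and had a value of 0.06, and Rrm2 and Tk1 rose without a match. Mcm7 has a second window in the table, without a match.
Mcm5, chr8:75109259-75109558, plus strand: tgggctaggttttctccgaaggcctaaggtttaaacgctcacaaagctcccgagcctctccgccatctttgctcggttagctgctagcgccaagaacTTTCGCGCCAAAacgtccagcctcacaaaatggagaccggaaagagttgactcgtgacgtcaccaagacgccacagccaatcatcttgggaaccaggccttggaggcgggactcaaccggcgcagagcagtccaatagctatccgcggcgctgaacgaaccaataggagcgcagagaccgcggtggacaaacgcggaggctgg
Mcm6, chr1:128359656-128359955, minus strand: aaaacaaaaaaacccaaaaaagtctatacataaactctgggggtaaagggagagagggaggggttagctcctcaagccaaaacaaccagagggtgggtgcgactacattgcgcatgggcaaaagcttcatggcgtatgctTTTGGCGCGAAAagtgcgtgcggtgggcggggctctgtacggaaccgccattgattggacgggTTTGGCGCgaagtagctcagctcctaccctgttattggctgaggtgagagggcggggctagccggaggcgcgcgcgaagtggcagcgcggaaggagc
Mcm7, chr5:138171834-138172133, minus strand: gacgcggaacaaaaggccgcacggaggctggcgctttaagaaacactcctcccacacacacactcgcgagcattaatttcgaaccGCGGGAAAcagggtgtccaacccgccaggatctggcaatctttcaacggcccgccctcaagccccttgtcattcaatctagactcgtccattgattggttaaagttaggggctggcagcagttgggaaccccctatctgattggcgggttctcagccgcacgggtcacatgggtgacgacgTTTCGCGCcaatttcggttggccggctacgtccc
Orc1, chr4:108579204-108579503, plus strand: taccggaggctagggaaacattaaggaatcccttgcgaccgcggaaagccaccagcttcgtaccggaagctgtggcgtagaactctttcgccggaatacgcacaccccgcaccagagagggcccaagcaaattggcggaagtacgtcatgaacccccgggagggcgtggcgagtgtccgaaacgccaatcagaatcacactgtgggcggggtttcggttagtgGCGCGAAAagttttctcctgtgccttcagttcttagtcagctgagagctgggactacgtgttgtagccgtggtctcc
Rrm2, chr12:24708004-24708303, plus strand: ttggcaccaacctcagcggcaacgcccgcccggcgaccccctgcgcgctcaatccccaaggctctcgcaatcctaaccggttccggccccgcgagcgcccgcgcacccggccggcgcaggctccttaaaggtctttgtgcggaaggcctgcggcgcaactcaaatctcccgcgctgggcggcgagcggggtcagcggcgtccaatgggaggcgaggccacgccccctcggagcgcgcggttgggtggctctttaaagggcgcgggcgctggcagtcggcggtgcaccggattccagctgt
Tk1, chr11:117825965-117826264, minus strand: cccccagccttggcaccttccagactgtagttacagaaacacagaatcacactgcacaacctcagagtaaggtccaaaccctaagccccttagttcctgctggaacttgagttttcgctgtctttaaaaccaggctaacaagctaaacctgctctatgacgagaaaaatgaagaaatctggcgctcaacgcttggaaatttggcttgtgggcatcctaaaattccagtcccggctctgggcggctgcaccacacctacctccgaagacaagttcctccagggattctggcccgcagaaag

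In Mcm5 and Mcm6 matches on opposite strands overlapped, so that the letters read as a site from either side, with first bases at -153 and -149 in Mcm5 and at -110 and -106 in Mcm6, counted from 0 at the start. Mcm6 held a further match at -47. In Mcm7 the matches began at -165 and 16, and in Orc1 the match began at -27. The Mcm5, Mcm6, Mcm7 and Orc1 windows had a GC content of 56.7% to 57.7%, that of Tk1 50.7% and that of Rrm2 71.3%.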

How the data were processed

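Gene expression was measured in 6 mouse heart samples, 3 control and 3 transgenic, grouped by their titles. Amplification from 100 ng of RNA began with a poly(T) primer and gave biotinylated product, per the labels' protocols. The authors deposited log2 expression per probe, and oligo, RMA and limma are named, with no version, in the submitters' processing notes. Whether probes were filtered is not stated there. Of 41345 probes, 23521 had 1 gene symbol in the platform annotation, 1814 several and 16010 none. The brightest probe of each gene was kept, which left 22180 genes.

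The main test was lmFit with eBayes (limma 3.58.1, R 4.3.3), two-sided and without covariates, and p-values were adjusted by Benjamini-Hochberg across the 22180 genes, with a threshold of 0.05. Intervals are 95% moderated intervals, and the 6 arrays leave 4 residual degrees of freedom. The gene pairs were compared by exact permutation tests (scipy 1.17.1). The steps were tested on simulated data, with 50 genes changed at each fold. The limma test recovered 0% of 1.25-fold, 44% of 1.5-fold, 78% of 2-fold and 98% of 4-fold changes. A gene that did not pass may therefore still have changed by a small amount. Far fewer genes were changed in the simulation than were called in the data, 1187 higher and 1278 lower. The adjusted threshold was therefore stricter in the simulation, and its rates are not those of the main test.

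The members and lists were chosen with earlier results of these data known. By the rule for names, every member is named, and values in every sample are given for members called with at least 1.5-fold and for the largest and smallest change of each role group. Of other lists, up to 4 called genes by smallest p and the genes of the compared pairs are named, and of markers up to 2. Values in every sample of Gmnn and Cdc45 are shown outside that rule and were chosen after their values were seen. Alternatives left out the dimmest 0.333 of genes, averaged probes, tested every probe, normalized again, centred arrays, modelled an intensity trend, weighted arrays, used a replicate block or a minimum fold of 1.5, or left out each array. Promoter sequences are from RefSeq (GRCm38.p6).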

Additional observations from a re-analysis of the deposited data

How the results depend on the processing

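Of the 15 genes that rose, 6 (Mcm7, Gins2, Prim1, Lig1, Tk1 and Chaf1b) passed under all 14 alternatives tested against a change of 0. Another 2, Pole and Rrm2, missed only when probes were averaged, and 7 missed under several. The count of members that rose was 8 with every probe tested, 0 with a minimum fold of 1.5 and 8 to 11 without each array in turn, all fewer than 15. The count of all genes called was 1212, 90 and 1171 to 2249 in the same settings, and that of further replication genes that rose 4, 0 and 3 to 9. Averaging probes gave 13 members, array weights 15, renewed quantile normalization 16, leaving out dim genes 17 of 44 tested and an intensity trend 18. Centring arrays on their medians gave 11 members, ending the calls of Orc3 (adjusted p = 0.0669), Mcm4 (0.0591), Cdc45 (0.0549) and Prim2 (0.062). For 6 members outside the 15 a call appeared in at least 1 alternative, such as Rpa3 with renewed quantile normalization (adjusted p = 0.034). The median of the members stayed between 0.28 and 0.35 without each array in turn. The direction was kept for 44 of 47 members. Without each array in turn the log2 fold change of Gins3 ranged from -0.035 to 0.12, the log2 fold change of Rfc1 from -0.043 to 0.13 and the log2 fold change of Rpa1 from -0.046 to 0.032, and renewed quantile normalization gave -0.0027 for Rfc1 and -0.020 for Rpa1. The difference Mcm2 minus Mcm9 ranged from -0.36 to 0.014. The cause was not tested. The labels number the hearts 1 to 3 in both groups and do not say whether the numbers pair them. Deviations of same-numbered arrays had correlations of 0.016, -0.13 and 0.014, and those of differently numbered arrays ranged from -0.11 to 0.11. With so few arrays, these values cannot settle whether the hearts were paired. With a replicate block 13 members rose, 11 of them among the 15. Signal over background was not available, so dim genes such as Orc1 have no detection call.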
